A study of Saccharomyces cerevisiae with 6 samples.

Results

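RNA that co-purified with Npl3 from heat-stressed baker's yeast was compared with RNA from a mock precipitation of heat-stressed cells without a tagged protein. The comparison took the log2 value of each S. cerevisiae locus on the Npl3 array at 42 °C minus its value on the no tag array at 42 °C, and covered 2 of the 6 arrays of the series and all 5667 loci measured. In the whole series, precipitates of Npl3, of Mex67 and of no tag cells were each taken at 25 °C and at 42 °C, with 1 array per protein and temperature. There are no replicates and hence no p-values, and every difference below is a description of the arrays named.

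Per the labels, all cells were grown at 25 °C in the rich medium YPD to log phase and then kept for 30 min at 25 °C or 42 °C. After UV crosslinking and lysis, RNA was pulled down on a mix of GFP-Trap beads and beads coated with a c-myc antibody. The Npl3 precipitates came from strain HKY157 and the Mex67 precipitates from strain HKY1266. The no tag control is labelled HKY36/HKY381, which names 2 strains, without saying if both went into each sample. The labels give no genotype, allele or tag for any of these strains, so a difference between strains and a difference in binding cannot be told apart locus by locus. Temperatures were assigned from the letters S (taken to mean stressed) and US (unstressed) in the column names, a meaning that no label gives. Of 37 heat shock chaperone mRNAs, 34 were higher on the S than on the US array of the control and 33 on those of Npl3.

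Npl3 is an SR-like RNA-binding protein that shuttles between nucleus and cytoplasm. It joins transcripts while they are being made, takes part in splicing and 3' end formation, and serves as an adaptor for the export receptor Mex67, which carries mRNA through the nuclear pore. The series' title names the question, which is whether stress transcripts leave the nucleus without the usual quality control, and this comparison shows which mRNAs were relatively more or less abundant with Npl3 than in the mock under heat.

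The 2 arrays covered the same range. The median locus was at 11.14 in the control and 11.13 with Npl3, and the highest locus at 15.43 and 15.42. Fission yeast probe sets, for which no RNA was in the samples per the labels, had medians of 3.96 and 4.01 and served as background. A locus was counted from a 2-fold difference on, provided that 1 of its levels exceeded the floor, the 95th percentile of these background probe sets. The floor was 4.997 in the control and 5.06 with Npl3, 5648 loci lay above it, and 1 of 4999 background probe sets differed 2-fold. Spike RNAs that go in before labelling stood at a median of 6.64 in the control and 5.40 with Npl3, and 32 of 36 were at least 2-fold lower, while 0 of 27 hybridisation controls differed 2-fold. The gap between the 3' and the 5' probe set of actin was 0.56 in the control and 1.10 with Npl3, that of SRB4 was 2.38 and 2.75, and that of SPT15 was 1.01 and 1.02. Probe sets for ribosomal RNA, 17 in number, had medians of 14.33 and 13.91. Whether the spike, 3' and rRNA differences have a part in the results below was not tested.

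Of the 5648 loci above the floor, 1057 (18.7%) were at least 2-fold higher in the Npl3 precipitate and 1096 (19.4%) at least 2-fold lower. At least 4-fold higher were 326 loci and at least 4-fold lower 98. The median difference over all loci was -0.14 on the log2 scale, and the differences ran from -6.27 to 6.54. Both extremes belong to genes of mating type, which are given next. The threshold falls in a continuous distribution: SPO19 lay just inside 2-fold higher and SMT1 just outside, and NTH1 just inside 2-fold lower and RTT10 just outside. All 4 lie within rounding of the threshold.

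**Figure D1:**
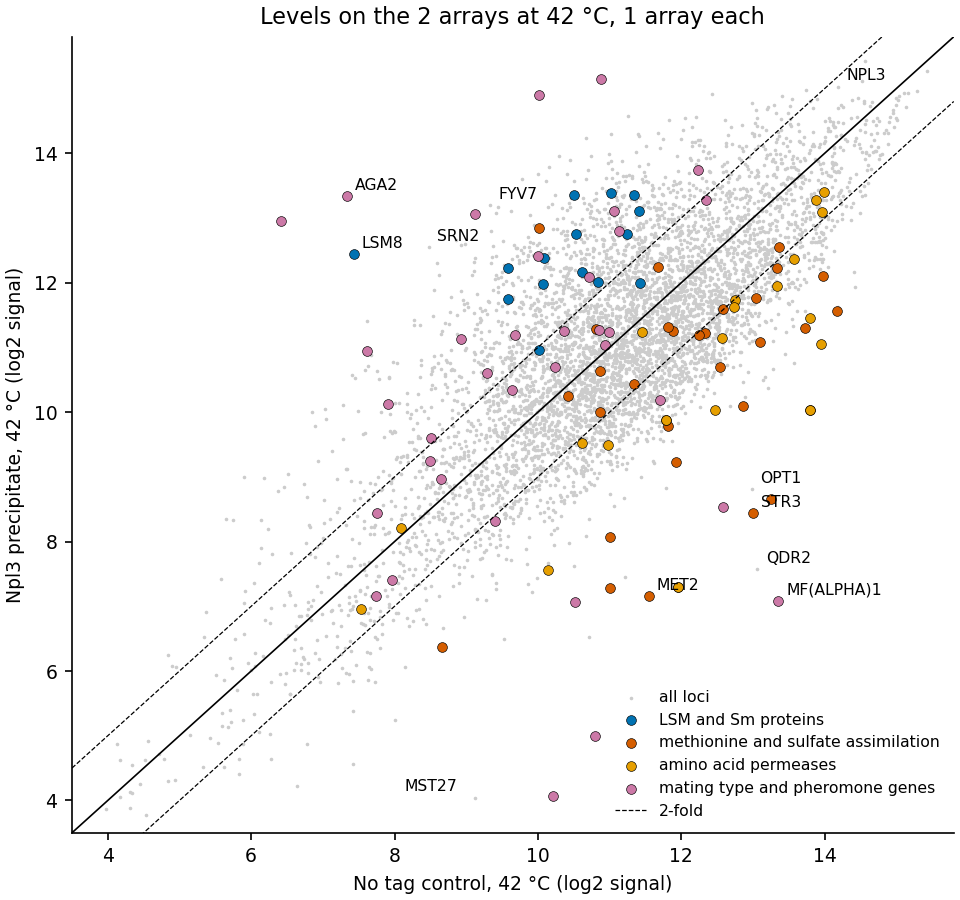
Log2 signal of every locus in the no tag control (x axis) and the Npl3 precipitate (y axis), both at 42 °C with 1 array each. The solid line marks equal levels and the dashed lines a 2-fold difference. LSM and Sm mRNAs lie above the solid line, most methionine genes and permeases lie below it, and mating type genes lie on both sides.

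The Npl3 strain and the control strains differed in mating type genes, and these were set aside as strain differences. HMRA1, the silent copy of an a cell regulator that the a mating type locus also holds, was at 6.42 in the control and 12.96 with Npl3. AGA2, the a-agglutinin subunit, was at 7.33 and 13.34. MFA2, an a-factor pheromone gene, was at 10.01 and 14.89. In the other direction, MF(ALPHA)1, the main alpha-factor gene, was at 13.35 in the control and 7.08 with Npl3, a difference of -6.27. STE3, the a-factor receptor of alpha cells, was at 12.59 and 8.54. PRM8, a pheromone-regulated membrane protein gene, was at 10.21 and 4.07, which is at the level of the background probe sets. HMRA1, AGA2 and MFA2 were thus high in the Npl3 precipitate, and the alpha cell genes MF(ALPHA)1 and STE3 high in the control. PRM8 did not go with the alpha cell genes on the Mex67 array at 42 °C, where it was at 11.02, MF(ALPHA)1 at 6.67 and STE3 at 7.90. Of the 35 mating type and pheromone genes, 16 (45.7%) were higher and 7 (20.0%) lower at 2-fold, against 18.7% and 19.4% of all loci.

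Auxotrophic marker genes, which laboratory strains often carry as deletions, also differed in both directions. URA3 was at 11.25 in the control and 14.58 with Npl3, and its 3', middle and 5' control probe sets were higher by 3.46, 3.52 and 3.67. HIS3 differed by 0.97 and LYS1 by 0.40. LEU2 was at 11.60 and 9.59, and CAN1, the arginine permease gene, at 12.57 and 11.14. MET17, the sulfhydrylase that builds homocysteine, was at 13.26 and 8.66, but it overlaps the locus YLR302C. It also belongs to the methionine genes described below, where it is counted. At 25 °C its difference was only -0.38, against -4.60 at 42 °C. Leaving out all genes of both strain lists gave 1040 higher and 1086 lower loci, so the strain genes make up a small share of the counts.

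The mRNAs of the export proteins themselves were then examined. NPL3 mRNA was at 14.19 in the control and 15.03 with Npl3, a difference of 0.84, and at 13.98 and 14.98 at 25 °C. MEX67 mRNA differed by 0.06. Neither passed 2-fold at 42 °C. Of 36 mRNAs for export and adaptor factors, 9 passed 2-fold as higher and 4 as lower, and the median was -0.04. That is 25.0% and 11.1% of the list, against 18.7% and 19.4% of all loci. The median was 0.45 once the length trend described below was removed.

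The higher export mRNAs mostly code for small proteins: of 8 list members of at most 852 bp, 7 were at least 2-fold higher. Of all loci in the length bins up to 852 bp (described below), 26.6% to 48.0% per bin were. GFD1, a cofactor of the export helicase Dbp5, was at 10.29 in the control and 13.95 with Npl3. SUS1 and SEM1, small subunits of the TREX-2 complex that ties transcription to the pore, were at 7.98 and 10.78 and at 11.13 and 13.17. MTR2, the partner of Mex67 in the export receptor, was at 10.99 and 13.38. These mRNAs thus differed while that of MEX67 itself was level. YRA2, an adaptor related to Yra1, was higher by 1.77, and MFT1, a subunit of the THO complex, by 1.57. CBC2, the small subunit of the cap-binding complex, was higher by 1.39, and CDC31, the centrin of TREX-2, by 1.23. MLP1, a filament of the nuclear basket and the longest of the higher members at 5628 bp, was at 10.93 and 12.50. The lower members were TOM1, a ubiquitin ligase of the export pathway, at -1.36, GBP2, an SR-like protein, at -1.13, SUB2, the helicase of TREX, at -1.05 and CRM1, the protein export receptor, at -1.02.

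mRNAs for nuclear pore proteins were lower more often than higher, with 2 of 33 (6.06%) at least 2-fold higher, 11 (33.3%) lower and a median of -0.68, against 18.7% and 19.4% of all loci. Many of these genes are long, 20 of 33 having at least 2106 bp, and with the length trend removed the median was -0.054, close to 0. The higher members were MLP1 and POM34, a membrane protein of the pore, which was at 10.51 and 11.83. MLP2, the paralogue of MLP1, differed by 0.93. NUP49, an FG nucleoporin, was at 12.64 in the control and 10.73 with Npl3. The scaffold nucleoporins NUP192 and NUP157 differed by -1.69 and -1.68.

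Among RNA processing factors, mRNAs of the LSM and Sm proteins stood high in the Npl3 precipitate. These small ring-forming proteins hold the spliceosomal U RNAs, and a cytoplasmic LSM ring starts mRNA decay. All 15 measured members lay above 0, and their median was 2.01 on the log2 scale. At least 2-fold higher were 13 of 15 (86.7%), against 18.7% of all loci. LSM8, which makes the nuclear ring on U6 RNA, was at 7.43 in the control and 12.44 with Npl3, a 32.3-fold difference and the highest of all named genes outside the strain lists. On the Mex67 array at 42 °C it was at 8.50. LSM4 was at 10.50 and 13.36, and SMX2, the Sm G protein, at 9.58 and 12.22. At the low end LSM6, at 11.43 and 11.999, and SMD1, at 10.02 and 10.95, did not reach 2-fold, while LSM5 differed by 1.16. SMD1 overlaps PRP38 and LSM5 overlaps YER145C-A, so signal of neighbouring transcripts cannot be told apart there. All 15 members are at most 852 bp long, and their median was 1.06 with the length trend removed (described below). Per length bin up to 852 bp, 26.6% to 48.0% of all loci were at least 2-fold higher.

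The other spliceosome factors also had a median above 0, with a wide spread. Of 66, 27 (40.9%) passed 2-fold as higher and 3 (4.55%) as lower, against 18.7% and 19.4% of all loci. Their median was 0.73, or 0.59 with the length trend removed. NTC20, a member of the Prp19 complex, was at 8.93 in the control and 11.87 with Npl3. CWC15, of the same complex, was at 11.01 and 13.88. CEF1, a further member, was at 9.71 and 12.42 although its gene is 1773 bp long. The lowest were the largest splicing proteins: PRP8, the core of the spliceosome, at 12.83 and 11.34, and BRR2, its helicase, at 11.93 and 10.58. SYF1 differed by -1.06. YHC1, a U1 snRNP protein not on this list but among the 12 highest named genes outside the strain lists, was at 10.16 and 13.78. Of the 23 spliceosome genes of at most 852 bp, 15 passed 2-fold as higher and 0 as lower, and of the 13 genes of at least 2106 bp, 0 were higher and 3 lower. Among all loci, 26.6% to 48.0% per length bin up to 852 bp were higher and, from 2106 bp, 27.0% to 44.2% lower.

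Genes whose own transcripts contain introns, other than ribosomal protein genes, had 37 of 106 members at least 2-fold higher and 10 lower. That is 34.9% and 9.43% of the list, against 18.7% and 19.4% of all loci. The median was 0.47, or 0.20 with the length trend removed. YOS1, a protein of ER to Golgi transport, was at 10.46 and 13.31, and DYN2, the dynein light chain, at 9.51 and 12.16. TFC3, the largest subunit of TFIIIC, was the lowest at 11.81 and 9.81, followed by BUD25 at 7.72 and 5.84, which overlaps HEM14 and FAA2, and LSB3 at 12.44 and 10.86. The shorter genes of this list held most of the higher calls: 30 of 53 genes of at most 852 bp were at least 2-fold higher. Among all loci, 48.0%, 42.6% and 26.6% of those in the length bins up to 852 bp were higher.

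mRNAs for 3' end formation and decay factors lay near all loci in their medians, with single members far out. Of 26 poly(A) and termination factors, 6 (23.1%) passed 2-fold as higher and 2 (7.69%) as lower, against 18.7% and 19.4% of all loci. Their median was 0.09. RTT103, a reader of the polymerase tail in termination, was at 9.70 in the control and 12.54 with Npl3, and PTI1 and FIP1, of the cleavage and polyadenylation factor, differed by 2.10 and 1.93. CFT1 and PTA1, large subunits of the same factor, differed by -1.41 and -1.28. Of 40 decay and surveillance factors, 6 were higher and 4 lower, and the median was 0.08. MPP6, a cofactor of the nuclear exosome, was at 10.44 and 13.89. UPF3, of nonsense-mediated decay, was at 10.40 and 12.68, whereas NAM7, the Upf1 helicase of the same pathway, was at 12.87 and 11.38. SKI8 and SKI3, partners in the Ski complex, differed by -1.80 and -1.30. Factors that act together thus lay on both sides of 0 in polyadenylation and in nonsense-mediated decay, and both Ski partners lay below it.

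The same division by size held within the RNA polymerases, where 13 of 31 subunit mRNAs (41.9%) passed 2-fold as higher and 4 (12.9%) as lower. All loci had 18.7% and 19.4%, and the list's median was 0.75, or 0.40 with the length trend removed. RPC19, shared by polymerases I and III, was at 11.19 in the control and 13.64 with Npl3, RPA12 at 11.11 and 13.47, and RPB11 at 10.77 and 13.00. The lowest members were large subunits: RPO31 of polymerase III was at 13.49 and 12.05, RPA190 of polymerase I at 13.81 and 12.62, and RPB2 of polymerase II at 13.27 and 12.12. Of 18 subunit genes of at most 852 bp, 12 passed 2-fold as higher and 0 as lower, and of 6 genes of at least 2106 bp, 4 were lower and 0 higher. Among all loci, 26.6% to 48.0% per length bin up to 852 bp were higher and, from 2106 bp, 27.0% to 44.2% lower. The rank correlation of difference and length across the 31 genes, which share these 2 arrays, was -0.80, as a description. Among the 9 histone genes, all short, 2 were higher, the linker histone gene HHO1 at 10.60 and 12.46 and HTB2 at 11.57 and 12.61, while HTA1, HTZ1 and HHT1 lay between -0.29 and -0.17. Their median was 0.11 and became -0.85 with the length trend removed.

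Ribosomal protein mRNAs, which code for the translating machine itself, had medians a little above that of all loci. Of 76 large subunit genes, 14 (18.4%) passed 2-fold as higher and 1 as lower, and the median was 0.24. Of 54 small subunit genes, 11 were higher and 1 lower, and the median was 0.37. These shares of higher genes are near the 18.7% of all loci, and those of lower genes, 1.32% and 1.85%, are below the 19.4%. With the length trend removed, the medians were 0.001 for large and 0.044 for small subunit genes. RPL22B was at 10.60 and 12.31, RPL29 at 12.23 and 13.90, and RPS29A at 12.69 and 14.41. At the other end RPL4B differed by -1.09, and ASC1, the ribosome-bound scaffold whose gene holds SNR24, by -1.19. The Mex67 precipitate at 42 °C had medians of -1.69 and -1.65 against the same control array for the large and small subunit genes. Many of these genes exist as near-identical pairs, and only genes with a probe set for a single transcript are named.

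Ribosome biogenesis factors had 32 of 125 members (25.6%) at least 2-fold higher and 5 (4.0%) lower, against 18.7% and 19.4% of all loci. The median was 0.27. RRP36 was at 9.87 in the control and 12.70 with Npl3, RRP15 at 11.51 and 14.11, and RRS1 at 11.11 and 13.70. EFG1 and FYV7, small proteins of pre-rRNA processing, are not on this list but among the same 12 highest genes. They were at 8.59 and 12.31 and at 9.33 and 13.19. MPP10, PWP2 and UTP21, large proteins of the small subunit processome, differed by -1.43, -1.20 and -1.09. With the length trend removed the median of this list was 0.57, above its value of 0.27 without that step.

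The mRNAs of tRNA synthetases had a median well below that of all loci, and those of translation factors one slightly below it. Of 37 translation factors, 6 (16.2%) were higher and 1 (2.70%) lower, against 18.7% and 19.4% of all loci. Their median was -0.25 against -0.14 for all loci, and it was -0.12 with the length trend removed. DED1, the initiation helicase, was at 12.38 and 14.00, and its gene is 1815 bp long. TIF11, the initiation factor eIF1A, and SUI2, of eIF2, differed by 1.55 and 1.49, and CAM1, of the elongation factor eEF1B, by -1.01. All 19 cytosolic aminoacyl-tRNA synthetase mRNAs, whose enzymes charge tRNA, lay below 0. At least 2-fold lower were 13 (68.4%) and higher were 0, with a median of -1.13 on the log2 scale. FRS2 was at 12.76 in the control and 11.09 with Npl3, ALA1 at 13.56 and 12.003, and HTS1 at 13.23 and 11.73. The smallest differences were those of WRS1 at -0.10 and TYS1 at -0.11. With the length trend removed the median was -0.51.

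The 3 lists of nuclear genes for mitochondrial proteins, most of them short, had medians above 0, whereas all 682 loci with mitochondrial titles had a median of -0.12, near the -0.14 of all loci. Of 44 genes of the respiratory chain and ATP synthase, 18 (40.9%) passed 2-fold as higher and 4 (9.09%) as lower, against 18.7% and 19.4% of all loci. The median was 0.79. STF1, which stabilises the inhibited ATP synthase, was at 11.02 in the control and 14.29 with Npl3, COX7, of cytochrome oxidase, at 10.69 and 13.74, and ATP19 at 10.63 and 13.30. SDH6, an assembly factor of succinate dehydrogenase that is not on this list but also 1 of those 12, was at 9.44 and 13.17. The lowest members were longer genes: NDE1, the external NADH dehydrogenase, was at 13.54 and 12.01, ATP1 at 13.95 and 12.45, and SDH1 at 11.85 and 10.42. All 18 higher members are at most 852 bp long, out of 34 of that size. Among all loci, 26.6% to 48.0% per length bin up to 852 bp were higher.

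Mitochondrial ribosomal proteins had 24 of 77 members (31.2%) higher and 2 (2.60%) lower, against 18.7% and 19.4% of all loci. The median was 0.55. IMG2 was at 10.99 and 13.98, RSM18 at 11.18 and 13.89 and MRPL25 at 10.27 and 12.83, while MRPL8 and MRPL9 differed by -1.44 and -1.15. Import and assembly factors had 15 of 52 (28.8%) higher and 7 (13.5%) lower, and the median was 0.39. Of the genes of at most 852 bp, 21 of 52 ribosomal and 15 of 37 import genes were higher. Per length bin up to 852 bp, 26.6% to 48.0% of all loci were. PET100, an assembly factor of cytochrome oxidase, was at 9.30 and 11.72, and TIM18 and TIM13, of the inner membrane import machinery, differed by 2.31 and 2.02. COX20 and TIM22 differed by -1.55 and -1.50 although both genes are short. With the length trend removed, the medians of the 3 mitochondrial lists were -0.04 for respiration, -0.07 for ribosomal proteins and -0.05 for import, so that their direction over 0 was not kept.

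**Figure D2:**
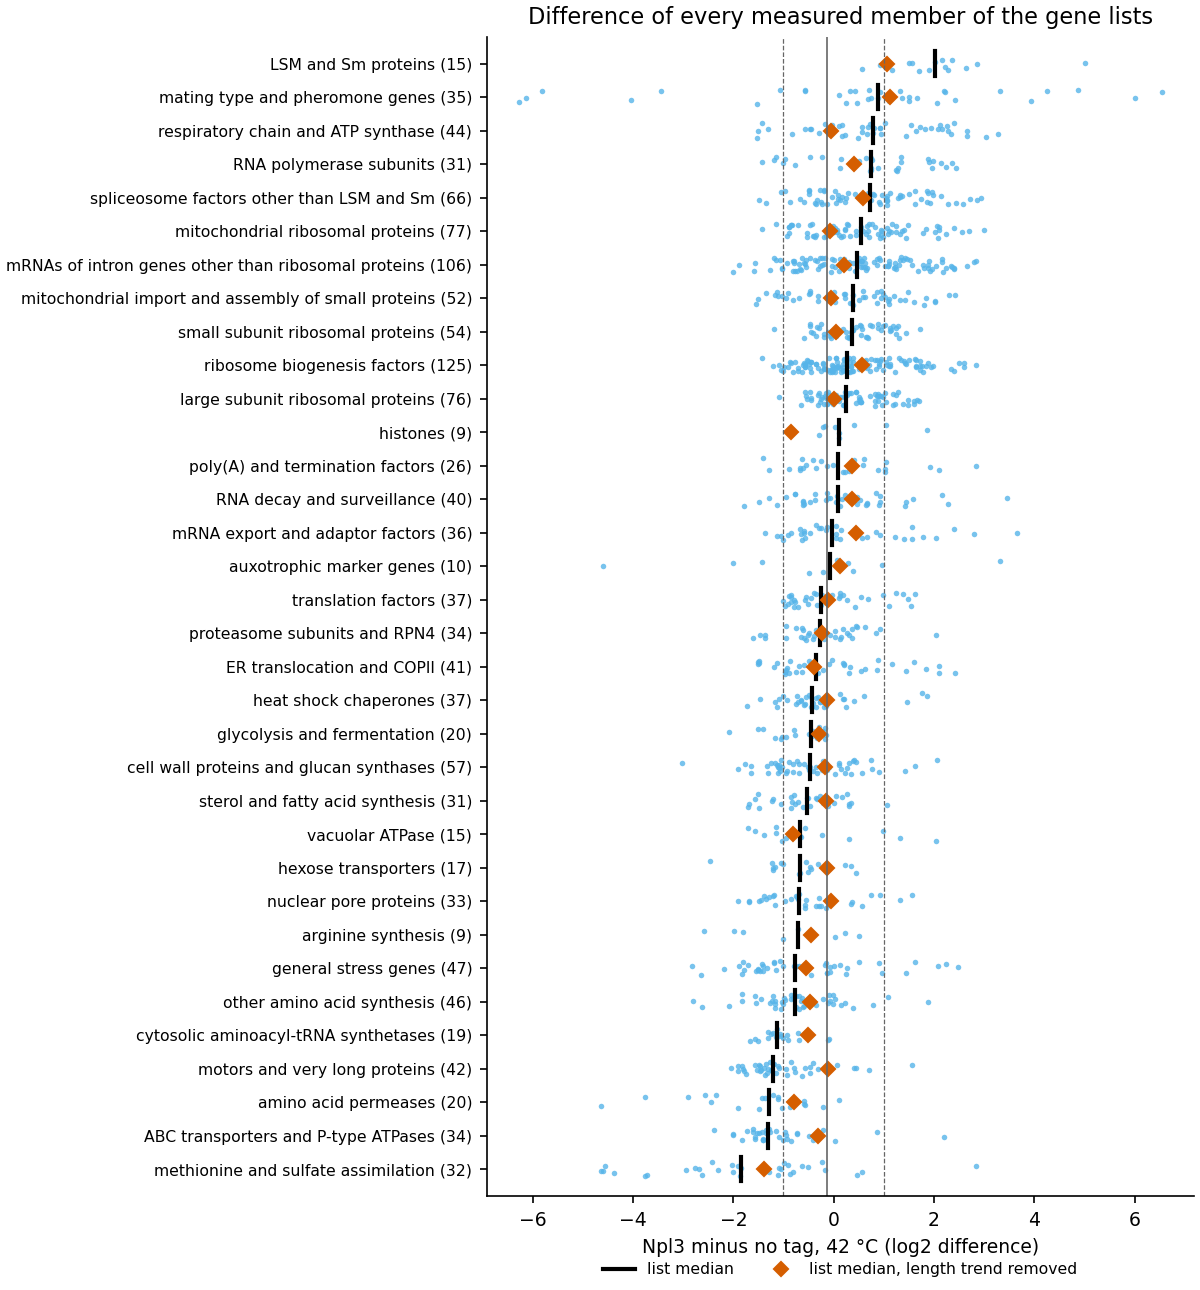
Difference of every measured member (points) of the 34 gene lists, Npl3 minus no tag at 42 °C on the log2 scale (x axis), with list sizes in brackets. Black bars are list medians, from 2.01 for LSM and Sm proteins to -1.86 for methionine genes, and diamonds are medians with the length trend removed. The grey line is the median of all loci and the dashed lines mark 2-fold.

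Many stress mRNAs were lower in the Npl3 precipitate than in the heated control. Of 47 general stress genes, 22 (46.8%) passed 2-fold as lower and 5 (10.6%) as higher, against 19.4% and 18.7% of all loci. Their median was -0.77, or -0.56 with the length trend removed. GPD1, which makes glycerol phosphate in osmotic stress, was at 13.20 in the control and 10.37 with Npl3. GSY2, the glycogen synthase, was at 12.89 and 10.24, and DCS2, a stress-induced regulator, at 13.28 and 11.10. The higher members included DDR2, a short stress gene, at 12.43 and 14.91, GPX1, a glutathione peroxidase, at 10.85 and 13.09, and XBP1, a transcriptional repressor, at 8.72 and 10.81. The list's median level was 11.82 at 25 °C and 12.87 at 42 °C in the control, and 11.37 and 11.94 with Npl3. At 25 °C 9 of the 47 were at least 2-fold lower and 7 higher, where 15.1% and 18.1% of all loci were.

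Heat shock chaperone mRNAs lay closer to all loci. Of 37, 6 (16.2%) passed 2-fold as lower and 3 (8.11%) as higher, against 19.4% and 18.7% of all loci. Their median was -0.44. HSP78, the mitochondrial disaggregase, was at 13.63 in the control and 11.91 with Npl3, and CUR1, a sorting factor for misfolded protein, at 11.66 and 10.19. AHA1, the activator of Hsp90, was at 14.52 and 13.34. MGE1, the mitochondrial nucleotide exchange factor, was higher at 11.77 and 13.63, SNL1 at 9.91 and 11.66, and HSP10, the small mitochondrial chaperonin, at 13.30 and 14.75. The median chaperone level was 14.22 in the heated control, whose highest locus was at 15.43. Proteasome subunits, the protein degradation machine, had 1 of 34 (2.94%) higher and 4 (11.8%) lower, both below the shares of all loci. The median was -0.27. The higher member was SEM1, which TREX-2 and the proteasome share. RPT6, an ATPase of the base, was at 13.98 and 12.36.

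Methionine and sulfate assimilation held the lowest list median, -1.86 on the log2 scale. Of its 32 genes, 21 (65.6%) were at least 2-fold lower and 1 higher, against 19.4% and 18.7% of all loci. MMP1, the S-methylmethionine permease, was at 11.95 in the heated control and 7.30 with Npl3, and MUP1, the methionine permease, at 13.79 and 10.04. STR3, a cystathionine lyase, was at 13.00 and 8.44, and MET2, the homoserine acetyltransferase, at 11.54 and 7.16. MHT1, which methylates homocysteine, was at 11.01 and 7.28, and MET28, a cofactor of the regulator Met4, at 11.003 and 8.07. These lay among the 12 lowest named genes once the strain lists were left out. The 1 higher member was MET31, a DNA-binding regulator of the pathway with a short gene, at 10.01 and 12.85, while MET4 differed by 0.57 and MET16 by 0.47. With the length trend removed, the list's median was -1.39.

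These genes were at other levels at 25 °C, where the list's median difference was -0.12 and 7 members were at least 2-fold higher and 9 lower. Of all loci at 25 °C, 18.1% were higher and 15.1% lower. The median level of the 32 genes was 10.76 at 25 °C and 11.94 at 42 °C in the control, and 19 were at least 2-fold higher in the heated than in the unheated control. With Npl3 the median level was 10.71 and 10.67, and on the heated array 0 of 32 genes were at least 2-fold higher and 4 at least 2-fold lower. MET17 was 1 of these 4, at 11.47 at 25 °C and 8.66 at 42 °C with Npl3. With Mex67 it was 10.52 and 12.40, with 21 of 32 at least 2-fold higher. The lower list median at 42 °C thus went with a higher control level and a nearly level median with Npl3, and for those 4 genes with a lower Npl3 level as well. STR3 was at 7.07 and 13.00 in the control, 8.23 and 8.44 with Npl3, and 6.82 and 12.85 with Mex67. A difference between the strains in how these genes respond to heat and a difference in binding cannot be told apart here.

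**Figure D3:**
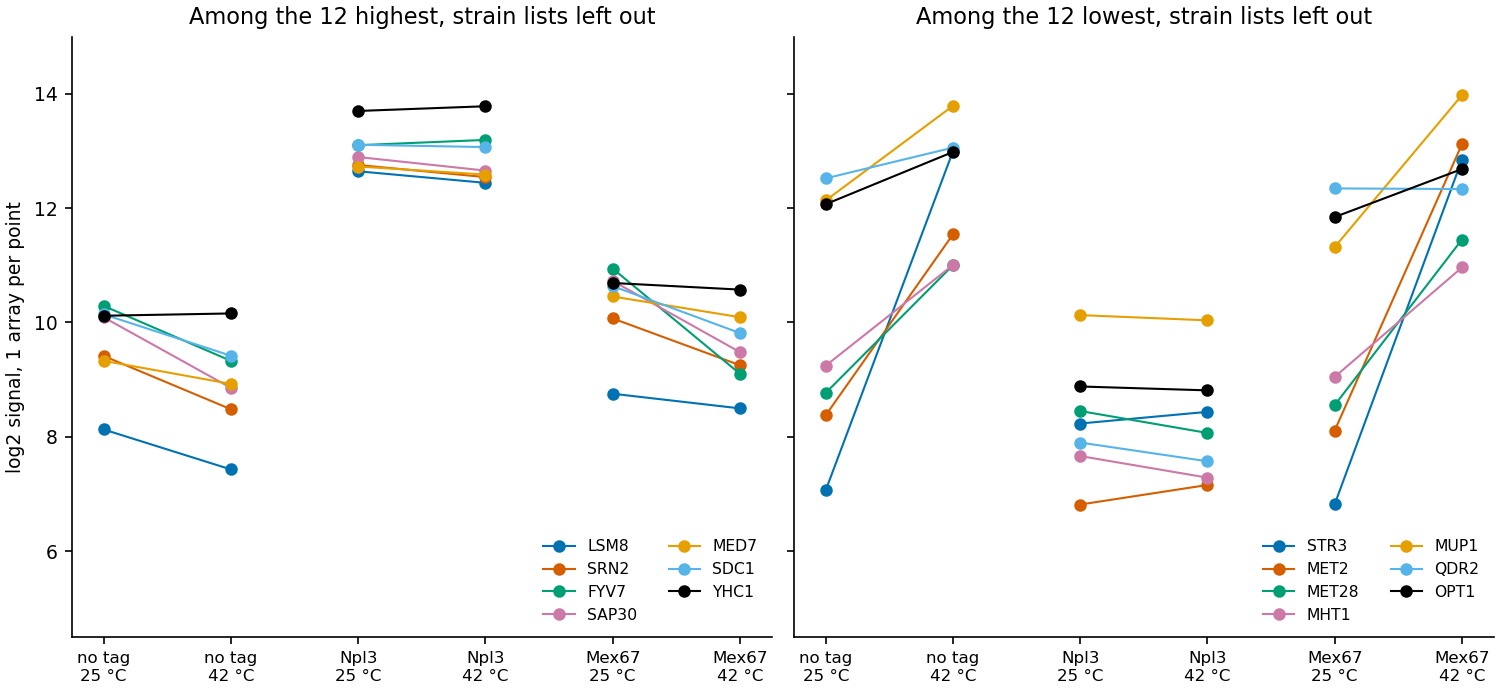
Log2 signal on all 6 arrays (y axis) for 7 of the 12 highest and 7 of the 12 lowest genes outside the strain lists, with lines joining 25 °C and 42 °C of 1 precipitate. The highest genes lie above both other precipitates on the Npl3 arrays at both temperatures, and STR3, MET2, MET28, MHT1 and MUP1 are higher at 42 °C than at 25 °C in the control and with Mex67 but not, or by far less, with Npl3.

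Other biosynthesis lists had medians below 0 that were closer to it. Of 9 arginine genes, 4 (44.4%) passed 2-fold as lower and 0 as higher, against 19.4% and 18.7% of all loci. Their median was -0.71. ARG4, the argininosuccinate lyase, was at 12.68 and 10.10, and ARG7 at 11.75 and 9.77. ARG3, the ornithine transcarbamylase, differed by 0.52 at 42 °C and by 4.91 at 25 °C, where the control was at 7.24 and Npl3 at 12.15. Among 46 other amino acid genes, 17 (37.0%) were lower and 2 (4.35%) higher, and the median was -0.77. GDH1, the main glutamate dehydrogenase, was at 13.57 and 10.76, LEU1 at 13.17 and 10.55 and ILV3 at 13.54 and 11.45. SER2, the phosphoserine phosphatase, was higher at 10.54 and 12.42. Sterol and fatty acid genes had 8 of 31 (25.8%) lower and 1 (3.23%) higher, with HMG2 at -1.71 and the elongase gene ELO1 at -1.68.

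Glycolytic mRNAs, among the most abundant of the cell, lay below 0 without exception. Of the 20, 6 (30.0%) passed 2-fold as lower and 0 as higher, against 19.4% and 18.7% of all loci. Their median was -0.46. The 3 smallest differences were those of FBA1 at -0.14, TDH3 at -0.16 and GPM1 at -0.17, and these mRNAs lay between 14.85 and 15.43, near the top of the scale on both arrays. PYK2, the minor pyruvate kinase, was at 11.83 and 9.75, PDC5, the minor pyruvate decarboxylase, at 10.65 and 9.14, and GLK1, glucokinase, at 14.49 and 13.07. GLK1 overlaps YCL042W.

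The 3 transporter lists all had medians below that of all loci. Of 20 amino acid permeases, 14 (70.0%) passed 2-fold as lower and 0 as higher, against 19.4% and 18.7% of all loci. Their median was -1.29. AGP1, a general permease, was at 13.96 in the control and 11.06 with Npl3. ALP1, at 8.09 and 8.20, was the 1 member above 0. Of 34 ABC transporters and P-type ATPases, 22 (64.7%) were lower and 1 higher, and the median was -1.32. Their median length was 4035 bp, and 32 of the 34 have at least 2106 bp. From that length on, 27.0% to 44.2% of all loci per length bin were lower. With the length trend removed, the median difference of this list was -0.32, that of the permeases -0.79 and that of the hexose transporters -0.14. ADP1 was at 12.85 and 10.47, YPK9 at 11.72 and 9.71 and NEO1 at 12.36 and 10.35. The higher member was STE6, the exporter of a-factor, which belongs to the strain genes. Of 17 hexose transporters, 7 (41.2%) were lower and 0 higher, and the median was -0.67. The lowest was HXT5 at 10.14 and 7.67, which at 25 °C was at 7.17 and 7.50. QDR2, a drug transporter, was the lowest named gene outside the strain lists, at 13.06 and 7.57, a 44.9-fold difference, and was at 12.52 and 7.90 at 25 °C. OPT1, an oligopeptide transporter, was at 12.98 and 8.81, and PNS1, a choline transporter homologue, at 11.22 and 7.46. QDR2, OPT1 and PNS1 are on none of the 3 lists.

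The cell surface and secretory lists were mixed. Of 57 cell wall genes, 17 (29.8%) were lower and 3 (5.26%) higher, against 19.4% and 18.7% of all loci. Their median was -0.47. FLO1, a flocculin, was at 9.53 and 6.50, CHS2, a chitin synthase, at 10.78 and 8.88, and UTR2, a crosslinking enzyme, at 12.61 and 10.84. AGA1, the anchor of a-agglutinin and a mating gene by function, was higher at 11.06 and 13.11, followed by RLM1, a transcription factor of wall integrity, and MTL1, a wall sensor, at 1.62 and 1.43. Of 41 ER translocation and COPII genes, 7 (17.1%) were higher and 6 (14.6%) lower, near the shares of all loci. The short subunits OST4, OST5 and SSS1 differed by 2.41, 2.10 and 2.09, and the long genes SFB3 and STT3 by -1.50 each. The vacuolar ATPase, which acidifies the vacuole, had 2 of 15 members higher, VMA10 at 12.14 and 14.18 and VMA9 at 11.88 and 13.21. Lower were 6 (40.0%), among them STV1 at 12.94 and 11.23 and VMA1 at 13.93 and 12.37. Its median was -0.67, or -0.82 with the length trend removed. Of its 8 genes of at most 852 bp, 2 were higher, and all 3 of at least 2106 bp were lower. Per length bin, 26.6% to 48.0% of all loci up to 852 bp were higher and, from 2106 bp, 27.0% to 44.2% lower. Among 42 motor and very long proteins, 26 (61.9%) were lower and 1, MLP1, higher. Their median was -1.21, or -0.11 with the length trend removed, and 41 of the 42 have at least 2106 bp. FMP27 was at 12.05 and 9.99 and VPS13, a lipid transfer protein, at 12.18 and 10.28.

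Length from start to stop codon, introns included, ordered the differences across the whole table. In the bin of loci from 51 to 450 bp the median difference was 0.94, with 48.0% at least 2-fold higher and 4.92% lower. It was 0.34 from 657 to 852 bp, -0.20 from 1029 to 1224 bp and -0.50 from 1464 to 1725 bp. In the bin from 2790 to 14733 bp it was -0.90, with 2.30% higher and 44.2% lower. The rank correlation was -0.47 across 5646 loci, which share the same 2 arrays. The 326 loci at least 4-fold higher had a median length of 534 bp, the 98 loci at least 4-fold lower one of 1470 bp, and all loci one of 1224 bp. At 25 °C the shortest and longest bins had medians of 0.94 and -0.76, and for Mex67 against the control at 42 °C they were -0.10 and 0.13. Binned by mean level on the 2 arrays instead, 10 bins had median differences from -0.26 to -0.07, a narrower range.

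**Figure D4:**
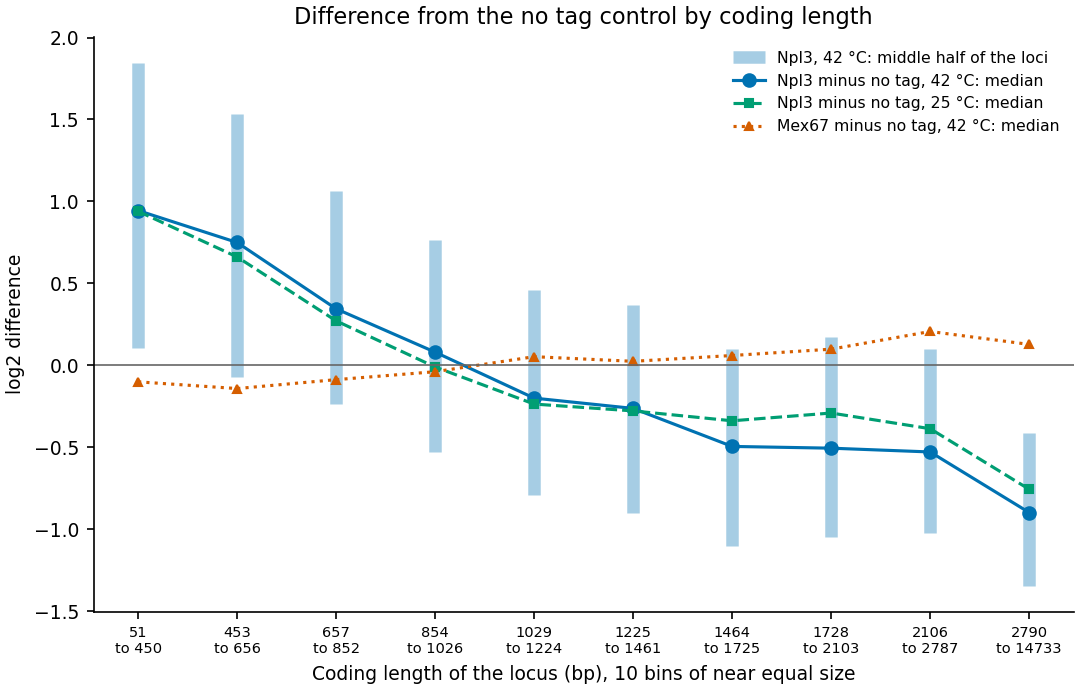
Median log2 difference from the no tag control (y axis) in 10 bins of loci by length in bp from start to stop codon (x axis), for Npl3 at 42 °C and 25 °C and Mex67 at 42 °C. Vertical bars span the interquartile range of the loci for Npl3 at 42 °C. The Npl3 medians at 42 °C go from 0.94 in the shortest bin to -0.90 in the longest.

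For labelling, the labels give a kit that works from the 3' end together with a protocol for whole transcripts, so the method behind these arrays is uncertain. Control probe sets along a transcript were available for a few genes. RIP1, a respiratory gene, was higher by 2.40 at its 3' end, 2.31 in the middle and 2.26 at its 5' end. ACT1, actin, was lower by 0.67, 0.92 and 1.22 at the same positions. The part of labelling in the length trend was not tested. With the trend removed by a running median, 962 of the loci with a length passed 2-fold as higher and 631 as lower.

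The same comparison at 25 °C used 2 other arrays with the same strain labels, which for the control name 2 strains. There 1019 of 5639 loci (18.1%) were at least 2-fold higher and 853 (15.1%) lower. Higher at both temperatures were 805 loci, 76.2% of the higher loci at 42 °C and 79.0% of those at 25 °C. Lower at both were 687, 62.7% of the lower loci at 42 °C and 80.5% of those at 25 °C. Across 5667 loci, the differences at both temperatures had a Pearson correlation of 0.89 and a Spearman correlation of 0.89. This is a description of loci that share arrays and are not independent. LSM8 differed by 5.02 and 4.52, SPO12, a regulator of mitotic exit, by 3.67 and 3.33, and MED7, a Mediator subunit, by 3.66 and 3.40. QDR2 differed by -5.49 and -4.62 and CAR2, the ornithine transaminase, by -2.95 and -3.06.

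No locus was higher at 42 °C and lower at 25 °C, and 3 were lower at 42 °C and higher at 25 °C. Besides STR3 these were SEO1, a permease gene, and SUL1, the sulfate permease gene, which were named after their values were seen. SEO1 differed by -1.77 at 42 °C and 1.99 at 25 °C, and SUL1 by -2.30 and 1.03. In all 3 the heated control was higher than the unheated control, and the Npl3 arrays lay close to each other. The differences at 42 °C lay at least 2-fold below those at 25 °C for 243 loci and at least 2-fold above for 64.

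**Figure D5:**
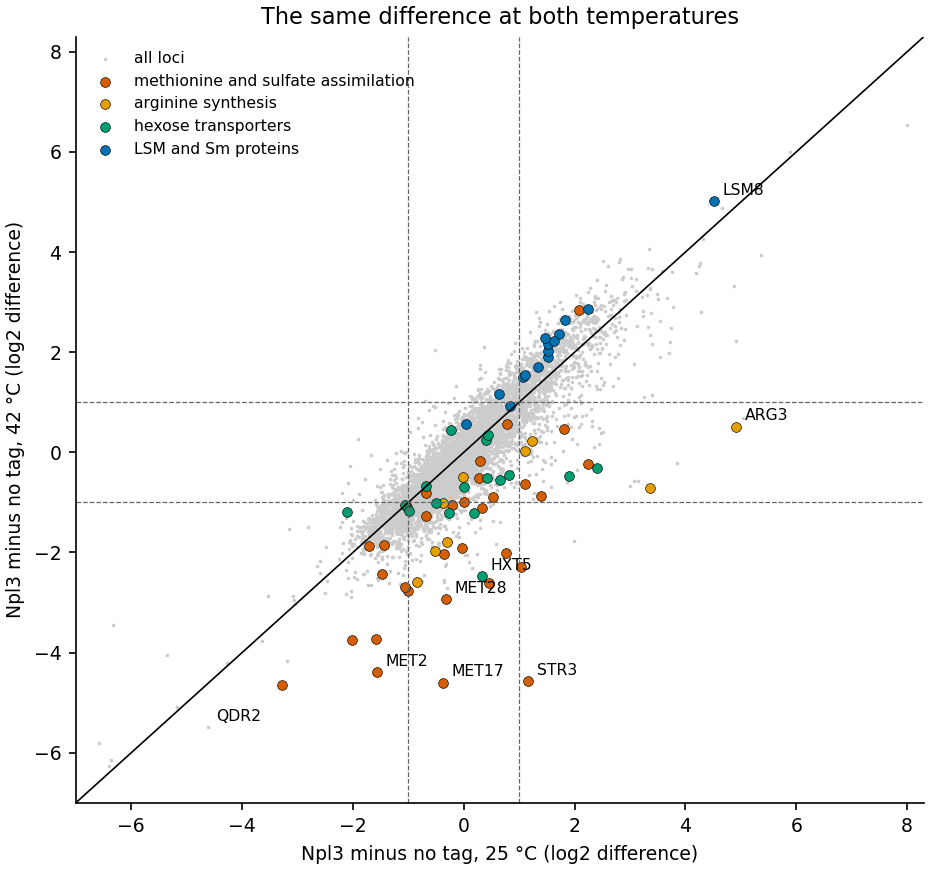
Log2 difference between Npl3 and no tag at 25 °C (x axis) and at 42 °C (y axis) for every locus, with 4 gene lists coloured. Dashed lines mark 2-fold and the solid line equal differences. LSM and Sm genes lie near the solid line, and methionine genes such as STR3 and MET17 lie far below it.

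The Mex67 precipitate at 42 °C shares the control array, so only its values are set beside those of Npl3. Against that control, Mex67 had 394 of 5650 loci (6.97%) past 2-fold as higher and 327 (5.79%) as lower. Over the 1057 loci chosen as higher with Npl3, the median level was 10.39 in the control, 12.19 with Npl3 and 10.50 with Mex67. Over the 1096 lower loci it was 11.79, 10.33 and 11.73. Among the 12 highest genes outside the strain lists, SRN2, of the ESCRT-I sorting complex, was at 8.48 in the control, 12.54 with Npl3 and 9.25 with Mex67. SAP30, of a histone deacetylase, was at 8.86, 12.66 and 9.48, and SDC1, of the COMPASS methyltransferase, at 9.42, 13.07 and 9.82. EGO4 was at 10.66 in the control and 14.24 with Npl3.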

How the data were processed

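Precipitated RNA was measured on 1 array in each of 6 groups. The values are log2 signals as the authors deposited them, with 1 column per array. The submitters' processing notes name the R package affy. Its version, background correction and normalization are not given in the sources used. The arrays' value ranges are alike, so a difference says how an mRNA stood among all mRNAs of its array.

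Of 10928 probe sets, 5716 are for S. cerevisiae. Probe sets of a locus were averaged (47 loci have several), giving 5667 loci. Locus tags gave 5646 of them a name through the RefSeq table of assembly R64, which also gave lengths (97.0% multiples of 3), and 21 keep the name in the deposited table. A difference is Npl3 minus no tag at 42 °C, counted when at least 2-fold and above the floor (95th percentile of 4999 S. pombe probe sets) on 1 of the arrays. With 1 array a group no test was run, and the number of arrays limits the precision. Lists are given by counts and medians beside all loci.

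The members, the 34 gene lists and the tests were chosen with earlier results of these data known. Named genes are the 12 highest and 12 lowest loci outside the 2 strain lists (mating type and marker genes) with a symbol and a probe set for a single transcript, the 3 highest and 3 lowest of each list, NPL3, MEX67, export genes past 2-fold and the pairs at the threshold. SEO1, SUL1, COS12 and HMLALPHA1 fall outside the rule, as do genes given only for control probe sets or as overlapping neighbours. The 8 alternatives were a higher floor, no floor, centring on the median, quantile normalization, background subtraction, removal of the length trend (running median of 301 loci), single-transcript probe sets and leaving out strain genes. Python 3.11.15, pandas 2.3.3, numpy 2.4.6 and scipy 1.17.1 were used. The counting was tested on simulated data with shifts well past the threshold, so calls near 2-fold were not tested.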

Additional observations from a re-analysis of the deposited data

Results flagged for a closer look

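STR3, the cystathionine lyase gene, lay lower with Npl3 than in the control at 42 °C, by -4.56 on the log2 scale, and higher at 25 °C, by 1.17. It was the 1 named gene past 2-fold in opposite directions at the 2 temperatures. The levels were 7.07 and 13.00 in the unheated and heated control and 8.23 and 8.44 with Npl3. The difference between the temperatures was not tested, since each group has 1 array.

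Of the 47 probe sets whose names mark them as reporters, 1, for which the table gives no gene, was higher with Npl3 by 5.21 at 42 °C. It was at 6.28 in the heated control and 11.49 with Npl3, and at 5.89 and 11.86 at 25 °C, a difference of 5.97. On the Mex67 arrays it was at 6.90 at 25 °C and 6.55 at 42 °C. The labels do not say which constructs the strains carry. The other reporter probe sets had 0 members higher and 3 lower at 2-fold.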

How the results depend on the processing

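No paired analysis was possible because each group has 1 array, and no replicate could be left out. The 1057 higher and 1096 lower loci became 802 and 744 with the floor raised to the array medians, 1057 and 1096 without a floor, 1211 and 855 with the median difference set to 0, 1066 and 1103 after quantile normalization, and 1056 and 1097 after background subtraction. They were 1049 and 1076 with single-transcript probe sets only, and 962 and 631 with the length trend removed. Higher loci made up 49.1% of all calls, but 58.6% when centred and 60.4% without the length trend. Removing that trend was the only alternative that moved list medians by more than the background spread of 0.24 (the SD of the S. pombe differences). The medians became 0.45 for export factors, -0.054 for nuclear pore, 1.06 for LSM and Sm, 0.37 each for poly(A) factors and decay, 0.40 for polymerases, 0.20 for intron genes, -0.85 for histones, 0.044 for small subunit ribosomal proteins and 0.57 for ribosome biogenesis. They became -0.51 for tRNA synthetases, -0.070 for mitochondrial ribosomal proteins, -0.044 for respiration, -0.048 for mitochondrial import, -0.14 for chaperones, -1.39 for methionine, -0.45 for arginine and -0.48 for other amino acids. For sterols it was -0.15, for permeases -0.79, for hexose transporters -0.14, for ABC transporters -0.32, for cell wall -0.18 and for very long proteins -0.11. The sign of the median changed in 6 of 34 lists there, in 2 when centred (export factors and marker genes, both near 0) and in 0 under the others run. Of 181 named genes past 2-fold, 121 still were without the trend, 173 when centred and 179 after quantile normalization, and 0 changed sign. The part of labelling or RNA length in the trend was not tested. Levels near the highest locus leave little room for a difference.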

Other observations

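Loci of 1000 to 2000 bp were grouped by words in the deposited gene titles, with groups and window chosen after the data were seen. All 2197 loci in this window had a median difference of -0.34 on the log2 scale, with 10.8% at least 2-fold higher and 22.5% lower. The 132 transporters and permeases had a median of -0.89, with 2.27% higher and 46.2% lower. The 145 loci with transcription factor titles had a median of 0.22, with 24.8% higher and 9.66% lower, and the 409 loci titled for nucleus, chromatin or transcription one of -0.05, with 20.0% higher and 13.7% lower. The 253 mitochondrial titles had a median of -0.47 and the 36 ER titles one of -0.70. Length still varied within the window, with a median of 1683 bp for transporters and permeases, 1461 bp for transcription factors and 1413 bp for all its loci. With the length trend removed, the medians were -0.44 for transporters and permeases, 0.58 for transcription factors, 0.34 for nucleus, chromatin or transcription, -0.07 for mitochondria, -0.25 for ER and 0.0003 for all loci of the window.

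Some loci were at background on both Npl3 arrays while the heated control lay above the floor. There were 15 of them. MST27, of the DUP240 membrane protein family, was at 9.12 in the heated control, 4.04 with Npl3 at 42 °C and 3.84 at 25 °C. It is the neighbour of PRM8 on chromosome VII, with 0 coding genes between them, and PRM8 was at 4.07 with Npl3 at 42 °C. On the Mex67 array at 42 °C both were above background, MST27 at 9.87 and PRM8 at 11.02. COS12, on the same chromosome by its locus name YGL263W and named after its values were seen, was at 7.43 in the heated control and 4.56 with Npl3.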
